A study of Mus musculus with 24 samples.

Results

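The NRF2 antioxidant programme is represented here by 10 mouse genes, taken as the rows of the deposited count table whose gene name is Nfe2l2, Slc7a11, Gclc, Gclm, Gsr, Txnrd1, Prdx1, Srxn1, Nqo1 or Hmox1. They are 10 of the 55401 genes in the table. Each name matched 1 row, and all 10 were among the 11717 genes that passed the filter on low counts.

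The libraries came from wild-type bone marrow-derived macrophages of C57BL/6J mice, primary cells grown out of marrow in medium conditioned by L929 cells, a fibroblast line that secretes the macrophage growth factor M-CSF. Cells received 30 µM of S14, which is sphingomyelin d18:1/14:0, a membrane lipid with a myristic acid side chain. Other cells received 100 ng/mL of LPS, the bacterial outer membrane component lipopolysaccharide that is sensed by TLR4, and control cells were left untreated. Cells were harvested after 3 h or 18 h, which gives 6 groups of 4 libraries: S14, LPS and untreated at each time. The labels call the control cells untreated, while the columns of the count table mark them as vehicle. The labels do not say whether the 4 libraries of a group came from separate mice. The p-values therefore measure the spread between these libraries, which may be technical.

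NRF2, the product of Nfe2l2, is a transcription factor whose protein is normally degraded because the adaptor KEAP1 hands it to a ubiquitin ligase. Oxidants and electrophiles modify KEAP1, NRF2 then accumulates, pairs with a small MAF protein and binds antioxidant response elements in the genes it controls. Those genes feed the glutathione and thioredoxin systems, detoxify quinones and break down haem. In macrophages the programme is known for limiting oxidative damage and for restraining inflammatory gene expression. NRF2 itself is regulated mostly at the level of protein, which these RNA counts do not show.

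On GRCm38, with gene positions from GENCODE M21, all 10 are protein-coding genes. Nfe2l2 lies at chr2:75675513-75704641 on the minus strand and Srxn1 at chr2:152105516-152111376 on the plus strand. Slc7a11 lies at chr3:49892526-50443614 on the minus strand and Gclm at chr3:122245557-122270732 on the plus strand. Prdx1 lies at chr4:116685544-116700822, Gclc at chr9:77754535-77794485 and Txnrd1 at chr10:82833951-82897712, all on the plus strand. On chromosome 8, Gsr lies at chr8:33652523-33698163 and Hmox1 at chr8:75093621-75100589 on the plus strand, and Nqo1 at chr8:107388225-107403206 on the minus strand. The libraries were made with a 3′ end kit, so reads come from the ends of transcripts and do not tell apart isoforms that share their 3′ end.

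The promoter sequence of 4 of the genes is shown, as examples from the comparison of S14 with LPS below. Srxn1 and Gclm had calls in both directions, Prdx1 was called at 18 h alone, and Nqo1 had the highest fold change at 18 h. Txnrd1 also had calls in both directions and is not shown. Hmox1, with the largest difference at 18 h, and Gclc, with the largest at 3 h, had no matched promoter, nor had Gsr. Each sequence comes from the RefSeq promoter table (build GRCm38.p6) and is read 5′ to 3′ on the gene's strand, within the 250 bases before the RefSeq start and ending before the GENCODE gene. Capitals mark matches, on either strand, to TGACNNNGC, the core of the antioxidant response element, or to TGANTCA, the AP-1 type element that resembles it.
Prdx1 chr4:116685349-116685543 plus strand: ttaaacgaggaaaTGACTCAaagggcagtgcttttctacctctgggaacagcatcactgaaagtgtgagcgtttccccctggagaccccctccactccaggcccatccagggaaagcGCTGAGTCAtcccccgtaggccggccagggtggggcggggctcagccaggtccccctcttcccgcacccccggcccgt
Srxn1 chr2:152105274-152105515 plus strand: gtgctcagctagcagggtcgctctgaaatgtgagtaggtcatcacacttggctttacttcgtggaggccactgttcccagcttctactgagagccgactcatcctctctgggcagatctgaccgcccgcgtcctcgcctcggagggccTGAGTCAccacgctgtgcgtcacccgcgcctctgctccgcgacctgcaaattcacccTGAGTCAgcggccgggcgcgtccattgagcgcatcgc
Gclm chr3:122245307-122245556 plus strand: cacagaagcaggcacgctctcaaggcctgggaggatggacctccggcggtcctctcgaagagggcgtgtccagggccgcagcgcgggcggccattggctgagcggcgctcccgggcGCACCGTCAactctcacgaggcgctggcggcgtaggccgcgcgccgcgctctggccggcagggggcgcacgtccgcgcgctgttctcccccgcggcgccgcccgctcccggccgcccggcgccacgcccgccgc
Nqo1 chr8:107403207-107403455 minus strand: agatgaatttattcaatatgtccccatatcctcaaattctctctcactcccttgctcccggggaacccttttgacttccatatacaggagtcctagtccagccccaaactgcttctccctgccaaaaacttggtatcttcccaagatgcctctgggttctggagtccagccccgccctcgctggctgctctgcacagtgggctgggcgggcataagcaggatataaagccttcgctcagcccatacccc
In Prdx1 the second capitalised stretch is a TGACNNNGC match that overlaps a TGANTCA match, and the first is a TGANTCA match alone. Srxn1 held 2 matches to TGANTCA, Gclm held 1 match to TGACNNNGC on the opposite strand, and these letters are not in the Nqo1 window.

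The RefSeq table matched 7 of the 10 genes, with 9 promoters between them. Of these 9 windows of 250 bases, 4 held TGACNNNGC (Nfe2l2, Gclm, Prdx1 and 1 of 3 Txnrd1 promoters), against 10.2% of all 32851 promoter windows. The second motif, TGANTCA, was in 2 of the 9, those of Prdx1 and Srxn1, against 6.75% of all windows. The other NRF2 pathway genes listed further below had 72 promoters. Of these, 9 (12.5%) held TGACNNNGC and 5 (6.94%) held TGANTCA, near the shares of all windows. A match of letters is a description and not a mapped binding site.

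Read totals per library ran from 3334182 to 6350251 reads assigned to genes. All 7 macrophage markers (Adgre1, Csf1r, Cd68, Itgam, Lyz2, Mertk and Fcgr1) were present in every group, with summed levels of 15513 to 44752 CPM (counts per 1000000 reads of the scaled library). Lyz2 was the most counted of these, at 7459 to 37221 CPM, while Csf1r, the next, reached 2718 CPM. The 4 T cell markers summed to 0.895 to 17.3 CPM, mostly from Cd4, which reached 16.1 CPM, while Cd3g was at 0 in every library. The 4 fibroblast markers summed to at most 17.5 CPM, mostly Dcn, with Pdgfra at 0 in every library, and the haemoglobin genes Hba-a1 and Hbb-bs were at 0 throughout. Replicate 4 of the untreated cells at 18 h stood apart: its genes deviated from their group means with a spread of 0.518 on the log2 scale, while the remaining libraries of untreated cells at 18 h had 0.327 to 0.345. Leaving it out changed 2 calls of the 10 genes, which are given with Gsr and with Prdx1 below.

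**Figure D1:**
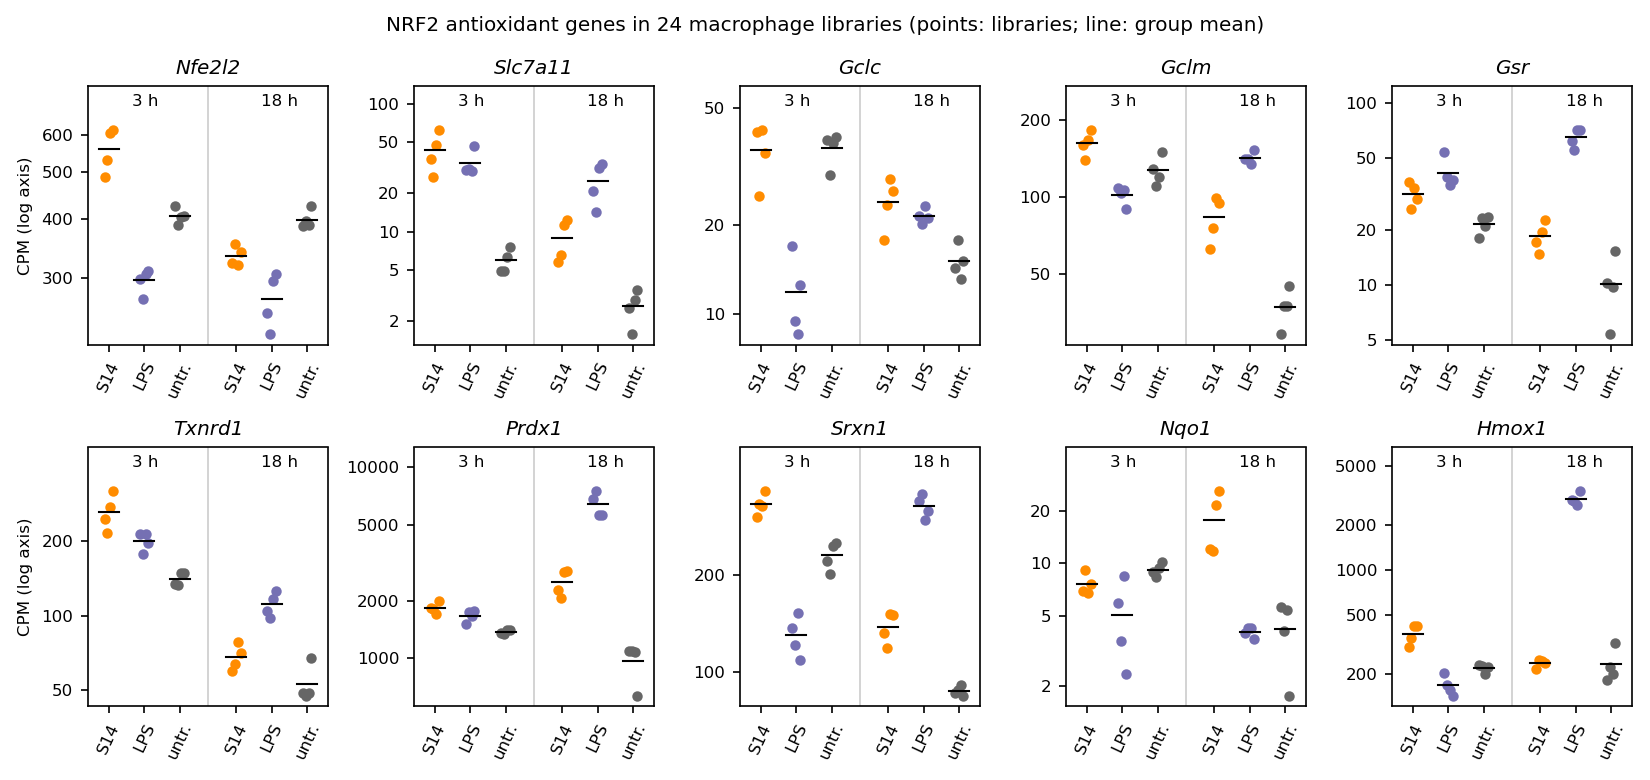
Level of each of the 10 genes in CPM (log axis) in the 24 libraries; points are libraries, lines are group means, and within each time S14 stands left of LPS and untreated cells. Hmox1 and Prdx1 are highest in LPS-treated cells at 18 h, Nqo1 in S14-treated cells at 18 h, and Nfe2l2 in S14-treated cells at 3 h.

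In the comparison of S14 with LPS, the direction of the programme depended on the time. At 3 h, 6 of the 10 genes were higher in S14-treated cells than in LPS-treated cells (Nfe2l2, Gclc, Gclm, Txnrd1, Srxn1 and Hmox1), none was lower, and 4 did not pass the test. Across all tested genes, 46.1% passed the test in this comparison, 23.7% as higher and 22.4% as lower. At 18 h, 7 of the 10 were lower in S14-treated cells (Slc7a11, Gclm, Gsr, Txnrd1, Prdx1, Srxn1 and Hmox1), 2 were higher (Nfe2l2 and Nqo1), and Gclc did not pass. The background at 18 h was 42.6% of all genes, 21.3% as higher and 21.3% as lower. The median log2 fold change of the 10 genes was 0.62 at 3 h and -1.01 at 18 h, against 0.07 and 0.02 for all tested genes. A gene passed the test, and is called higher or lower, at an adjusted p under 0.05 in edgeR's quasi-likelihood F test with Benjamini-Hochberg adjustment over all 11717 genes. In bulk samples like these, fewer cells that express a gene and less RNA per cell cannot be told apart.

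**Figure D2:**
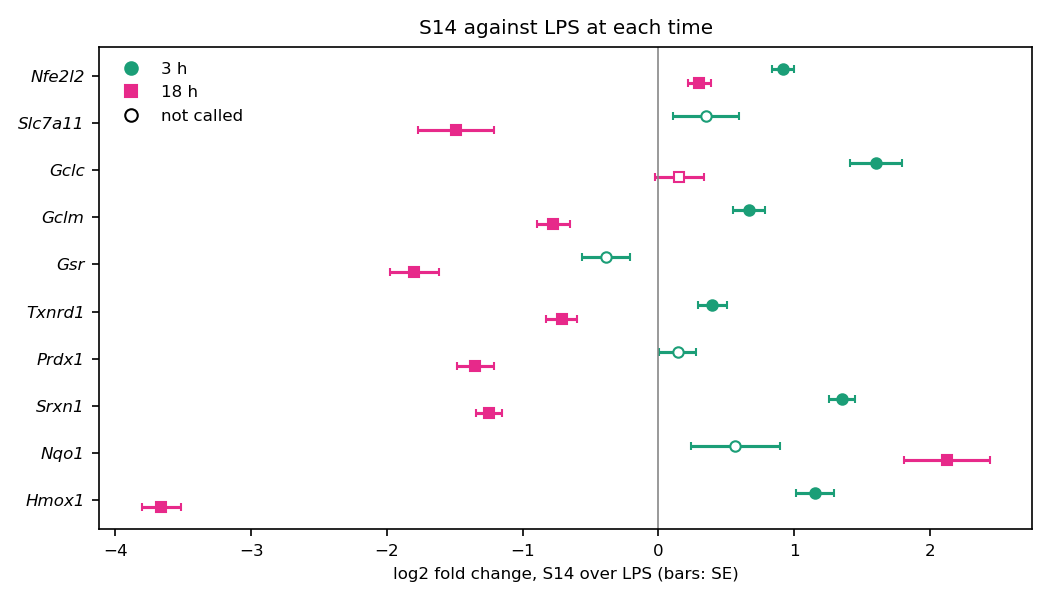
Log2 fold change of S14 over LPS for each of the 10 genes, with its standard error as bars; circles are 3 h, squares are 18 h, and open symbols did not pass the test. At 3 h the 6 filled circles lie between 0.40 and 1.60, while at 18 h the 7 genes below zero lie between -0.71 and -3.66.

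The transcription factor gene came first. At 3 h Nfe2l2 was measured at 489, 530.5, 606 and 614 CPM in S14-treated cells, 299, 272, 306 and 311 CPM in LPS-treated cells and 424, 388, 404 and 406 CPM in untreated cells. The 3 groups did not overlap: S14 was highest and LPS lowest, with untreated cells between them. The log2 fold change of S14 over LPS was 0.92 ± 0.08 (SE, adjusted p = 1.54e-12), or 1.89-fold.

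At 18 h Nfe2l2 was at 322, 354, 319 and 341 CPM in S14-treated cells, 253, 229, 295 and 307 CPM in LPS-treated cells and 385, 395, 388 and 424 CPM in untreated cells. The groups again did not overlap, but untreated cells were now the highest. S14 remained above LPS by 0.30 ± 0.08 on the log2 scale (adjusted p = 0.00304); the difference at 18 h minus that at 3 h was -0.62 ± 0.12 (adjusted p = 3.96e-05). Over the 6 groups the mean of Nfe2l2 varied by 2.07-fold, the narrowest range of the 10 genes.

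The 4 genes of the glutathione system took separate courses. Slc7a11 encodes the cystine importer xCT, which supplies the cysteine for glutathione and is also a target of the integrated stress response. At 3 h it was at 37.2, 26.6, 47.8 and 62.2 CPM in S14-treated cells, 30.6, 30.9, 29.9 and 46.2 CPM in LPS-treated cells and 4.94, 4.95, 6.38 and 7.66 CPM in untreated cells. Both stimuli were far above untreated cells, and S14 and LPS overlapped. Their difference was 0.35 ± 0.24 on the log2 scale (adjusted p = 0.26). At 18 h Slc7a11 was at 5.78, 6.59, 11.3 and 12.3 CPM in S14-treated cells, 20.8, 14.3, 31.3 and 33.6 CPM in LPS-treated cells and 2.52, 1.58, 2.94 and 3.50 CPM in untreated cells. The 3 groups were now separate, with S14 between the others and 2.81-fold below LPS (log2 -1.49 ± 0.28, adjusted p = 6.92e-05). Counts of Slc7a11 were low in untreated cells, at 10 to 30 reads per library.

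Gclc encodes the catalytic subunit of glutamate-cysteine ligase, the rate-limiting enzyme of glutathione synthesis. For Gclc at 3 h, the libraries had 41.6, 25.2, 42.2 and 35.3 CPM in S14-treated cells, 17.0, 9.47, 8.50 and 12.5 CPM in LPS-treated cells and 39.1, 29.7, 38.1 and 39.8 CPM in untreated cells. S14 and untreated cells overlapped, and all 4 LPS libraries lay below both. The log2 fold change of S14 over LPS was 1.60 ± 0.19 (adjusted p = 2.03e-09), the largest of the 10 genes at 3 h. At 18 h Gclc was at 17.7, 23.5, 28.8 and 26.0 CPM in S14-treated cells, 21.5, 20.1, 23.3 and 21.2 CPM in LPS-treated cells and 14.3, 17.9, 13.1 and 15.1 CPM in untreated cells. S14 and LPS overlapped at this time, with a log2 difference of 0.15 ± 0.18 (adjusted p = 0.526).

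Gclm encodes the modifier subunit of the same ligase, which raises the activity of the catalytic one. Gclm at 3 h stood at 159.7, 139, 166 and 182 CPM in S14-treated cells, 108, 103, 107 and 89.8 CPM in LPS-treated cells and 128, 111, 119 and 149 CPM in untreated cells. LPS was the lowest group with no overlap, and S14 overlapped with untreated cells. At 18 h Gclm was at 62.8, 75.3, 99.3 and 95.0 CPM in S14-treated cells, 141, 141, 134 and 152 CPM in LPS-treated cells and 29.0, 37.3, 37.6 and 45.0 CPM in untreated cells. The order had turned, with LPS highest, S14 between and untreated cells lowest, all without overlap. S14 over LPS was 0.67 ± 0.12 at 3 h (adjusted p = 9.25e-06) and -0.77 ± 0.12 at 18 h (adjusted p = 9.9e-07). Of the subunits of this ligase, the modifier passed the test as lower with S14 at 18 h and the catalytic one did not pass; the difference between the genes was not tested.

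Gsr encodes glutathione reductase, which returns oxidised glutathione to its reduced form. Its levels at 3 h were 37.0, 26.1, 34.1 and 29.7 CPM in S14-treated cells, 53.6, 39.3, 35.7 and 37.6 CPM in LPS-treated cells and 18.1, 23.4, 21.1 and 23.7 CPM in untreated cells. Both stimuli were above untreated cells and overlapped with each other (S14 over LPS -0.39 ± 0.18, adjusted p = 0.0691). At 18 h Gsr was at 17.3, 14.8, 19.5 and 22.9 CPM in S14-treated cells, 61.6, 55.1, 71.2 and 71.2 CPM in LPS-treated cells and 10.3, 5.38, 9.79 and 15.4 CPM in untreated cells. All LPS libraries lay above all S14 libraries, and the log2 difference of -1.80 ± 0.18 (adjusted p = 6.62e-11) made Gsr 3.48-fold lower in S14-treated cells. The 3 h difference, which did not pass in the full fit, passed as lower without replicate 1 of S14 at 3 h (adjusted p = 0.0491), without replicate 2 of untreated cells at 18 h (adjusted p = 0.0384) and without their replicate 4 (adjusted p = 0.0277). It also passed in the fit of only the groups compared (adjusted p = 0.0177) and with the replicate block (adjusted p = 0.0453).

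Of the thioredoxin system, Txnrd1 encodes the cytosolic thioredoxin reductase, which passes electrons from NADPH to thioredoxin. Levels of Txnrd1 at 3 h were 246, 216, 275 and 319 CPM in S14-treated cells, 214, 178, 215 and 197 CPM in LPS-treated cells and 135, 133, 149 and 149 CPM in untreated cells. The groups formed an order without overlap, although the lowest S14 library and the highest LPS library were only just apart. At 18 h Txnrd1 was at 60.0, 63.8, 78.0 and 71.0 CPM in S14-treated cells, 104, 98.4, 117 and 126 CPM in LPS-treated cells and 48.8, 47.4, 48.5 and 67.4 CPM in untreated cells. LPS stood above S14 at this time, and S14 overlapped with untreated cells through 1 untreated library at 67.4 CPM. S14 over LPS was 0.40 ± 0.11 at 3 h (adjusted p = 0.00239) and -0.71 ± 0.12 at 18 h (adjusted p = 2.18e-06).

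Prdx1 encodes a peroxiredoxin that reduces hydrogen peroxide with electrons from thioredoxin. The 3 h libraries held 1837, 1797, 1706 and 1999 CPM in S14-treated cells, 1499, 1734, 1652 and 1762 CPM in LPS-treated cells and 1352, 1337, 1397 and 1409 CPM in untreated cells. S14 and LPS overlapped, with a log2 difference of 0.14 ± 0.14 (adjusted p = 0.415). At 18 h Prdx1 was at 2283, 2061, 2811 and 2862 CPM in S14-treated cells, 6854, 7464, 5604 and 5589 CPM in LPS-treated cells and 1085, 1084, 1075 and 633 CPM in untreated cells. Both stimuli were above untreated cells, LPS by more, and S14 was 2.55-fold below LPS (log2 -1.35 ± 0.14, adjusted p = 2.13e-08). Prdx1 has near-identical processed copies in the genome, and the sources used here do not say how reads with several matches were counted. Its reads summed over libraries to 263764 in the count table and 268094 in the second deposited table, and no call for Prdx1 differed between the tables.

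Srxn1 encodes sulfiredoxin, which repairs peroxiredoxins that have been over-oxidised. Srxn1 at 3 h measured 303, 333, 329 and 365 CPM in S14-treated cells, 137, 121, 153 and 109 CPM in LPS-treated cells and 222, 201, 247 and 252 CPM in untreated cells. The groups did not overlap, and S14 was 2.56-fold above LPS (log2 1.35 ± 0.10, adjusted p = 5.94e-16). At 18 h Srxn1 was at 132, 119, 151 and 151 CPM in S14-treated cells, 339, 357, 298 and 317 CPM in LPS-treated cells and 85.9, 87.9, 90.7 and 84.2 CPM in untreated cells. LPS was now the highest, and S14 was 2.37-fold below it (log2 -1.25 ± 0.09, adjusted p = 1.2e-14). The mean of S14-treated cells at 3 h and that of LPS-treated cells at 18 h, 333 and 328 CPM, overlapped in their libraries. Prdx1 and Srxn1, the peroxiredoxin and its repair enzyme, thus shared the direction at 18 h, while at 3 h Srxn1 passed the test and Prdx1 did not, a difference between genes that was not tested.

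Nqo1 encodes a quinone reductase that uses NADPH or NADH to reduce quinones, and is often read as a marker of NRF2 activity. It was the least counted of the 10, with 884 reads over the 24 libraries. In the 3 h libraries Nqo1 reached 6.98, 9.17, 6.75 and 7.63 CPM in S14-treated cells, 5.95, 3.62, 8.50 and 2.34 CPM in LPS-treated cells and 8.95, 8.33, 9.46 and 10.2 CPM in untreated cells. S14 overlapped with both other groups, and S14 over LPS was 0.57 ± 0.33 (adjusted p = 0.16). Without replicate 3 of LPS at 3 h, the highest library of its group, this difference was 0.94 and passed (adjusted p = 0.0319). At 18 h Nqo1 was at 12.2, 11.7, 21.5 and 25.8 CPM in S14-treated cells, 3.98, 4.28, 4.25 and 3.71 CPM in LPS-treated cells and 5.61, 4.11, 5.45 and 1.75 CPM in untreated cells. All 4 S14 libraries lay above every library of the other 5 groups, and the S14 libraries fell into a lower pair, replicates 1 and 2, and a higher pair, replicates 3 and 4. At 18 h the same pairs of S14 libraries were apart, in the same direction, for Slc7a11, Gclc, Gclm, Gsr, Txnrd1, Prdx1 and Srxn1. They were not for Nfe2l2 and Hmox1. What the pairs share was not tested. S14 was 4.36-fold above LPS (log2 2.12 ± 0.32, adjusted p = 3.78e-07).

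Hmox1 encodes haem oxygenase 1, which breaks haem into biliverdin, iron and carbon monoxide, and is repressed by BACH1. Hmox1 levels at 3 h were 304, 351, 419 and 419 CPM in S14-treated cells, 203, 170.2, 157 and 143 CPM in LPS-treated cells and 230.3, 228, 201 and 222 CPM in untreated cells. S14 was highest with no overlap, at 2.22-fold of LPS (log2 1.15 ± 0.14, adjusted p = 1.58e-07). At 18 h Hmox1 was at 216, 248, 246 and 239 CPM in S14-treated cells, 2967, 2896, 2756 and 3375 CPM in LPS-treated cells and 183, 223, 202 and 323 CPM in untreated cells. S14 overlapped with untreated cells, and LPS was above every other library of the series. S14 was 12.6-fold below LPS (log2 -3.66 ± 0.15, adjusted p = 1.77e-16), the largest difference of the 10 genes in this comparison.

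For all 10 genes the difference between S14 and LPS at 18 h departed from that at 3 h in edgeR's test of the interaction, against 40.7% of all tested genes. It was lower at 18 h for 9 genes, where the background was 19.2%. These ranged from -0.62 ± 0.12 for Nfe2l2 (adjusted p = 3.96e-05) to -4.81 ± 0.20 for Hmox1 (adjusted p = 7.81e-16). Srxn1 moved by -2.60 ± 0.13 (adjusted p = 1.82e-19), with a call in each direction at the separate times. Nqo1 was the gene that was higher at 18 h, by 1.56 ± 0.46 (adjusted p = 0.00561), where the background was 21.5%. The libraries also carry synthetic spike-in RNA (ERCC and SIRV), whose share of reads per library can be used for scaling in place of the gene reads. That scaling left 5 of the 10 calls, all as lower (Slc7a11, Gclm, Prdx1, Srxn1 and Hmox1), and 9 when replicate 4 of the untreated cells at 18 h was also left out. Of all genes, 9.97% were called under that scaling, and 21.7% with that library left out as well.

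Several values moved with the LPS groups. At 3 h the share of gene reads from mitochondrial transcripts was 1.67% to 1.99% in S14-treated cells, 1.32% to 1.45% in LPS-treated cells and 1.59% to 2.07% in untreated cells. The 5 markers of neutrophils and myeloid precursors summed at 3 h to 5.09 to 11.4 CPM with S14, 6.49 to 34.3 CPM with LPS and 2.64 to 3.83 CPM in untreated cells, with Ly6g and Elane at 0 in all 3 groups. The lowest library of either stimulus was thus above every untreated one for these markers, and LPS and S14 overlapped. At 18 h the mitochondrial share was 1.03% to 1.27% in S14-treated cells, 0.54% to 0.834% in LPS-treated cells and 1.48% to 1.67% in untreated cells. The neutrophil and precursor markers summed to 2.47 to 8.20 CPM in S14-treated cells, 40.3 to 49.4 CPM in LPS-treated cells and 1.74 to 4.64 CPM in untreated cells at that time, with Mpo and Elane at 0 in the LPS group. Over all libraries S100a8 reached 48.6 CPM and S100a9 17.9 CPM, while Ly6g, Mpo and Elane reached 0.218, 0.971 and 0.158 CPM. The 4 fibroblast markers summed to at most 1.99 CPM with S14, 10.3 to 17.5 CPM with LPS and at most 1.58 CPM in untreated cells, with Col1a2 and Pdgfra at 0 in the LPS group. The 7 macrophage markers summed to 31436 to 32548 CPM with S14, 15513 to 23537 CPM with LPS and 30960 to 44752 CPM in untreated cells. Lyz2 ran from 7459 to 37221 CPM over all libraries, so these sums depend strongly on that gene. The 4 T cell markers summed to 6.79 to 11.0 CPM with S14, 0.895 to 4.37 CPM with LPS and 9.10 to 17.3 CPM in untreated cells at 18 h, with Cd3e and Cd3g at 0. The scaling factor of the libraries also moved, and a lower factor gives a higher CPM for the same share of gene reads. At 3 h it was 1.08 to 1.12 with S14, 0.755 to 0.773 with LPS and 1.176 to 1.182 in untreated cells. At 18 h it was 1.03 to 1.04 with S14, 0.860 to 0.894 with LPS and 1.09 to 1.13 in untreated cells. Small differences of the LPS groups depend on this factor. The part of these values in the differences at 3 h and 18 h was not tested.

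Spike-in reads made up 0.0356% to 0.0472% of reads in S14-treated cells at 3 h, 0.0178% to 0.0319% in LPS-treated cells and 0.0431% to 0.0595% in untreated cells. At 18 h the ranges were 0.0438% to 0.0543% with S14, 0.0218% to 0.0434% with LPS and 0.0134% to 0.0418% in untreated cells. At 3 h scaling by spike-in RNA left 2 of the 6 calls of S14 against LPS, Gclc and Srxn1, and moved the median of all genes to -0.16. The share of all genes called fell as well, to 19.0%. With the same scaling and replicate 4 of the untreated cells at 18 h left out, Nfe2l2 and Hmox1 also passed, while Gclm (0.43, adjusted p = 0.161) and Txnrd1 (0.16, adjusted p = 0.653) did not, and Gsr passed as lower (-0.67, adjusted p = 0.0347). In that fit 29.4% of all genes were called. At 18 h spike-in scaling left 8 of the 9 calls, the exception being Nfe2l2. It moved the median of all genes to -0.30, and 16.3% of all genes were called.

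Against untreated cells, S14 was followed by higher levels of most of the programme at both times. At 3 h 8 of the 10 genes were higher with S14 and none was lower, against a background of 15.2% of all genes, 9.05% as higher and 6.2% as lower. Slc7a11 was 7.31-fold higher (log2 2.87 ± 0.29, adjusted p = 6.09e-09), Txnrd1 1.87-fold (adjusted p = 1.63e-08), Hmox1 1.70-fold (adjusted p = 0.000175), Srxn1 1.44-fold (adjusted p = 2.3e-05) and Nfe2l2 1.38-fold (adjusted p = 2.75e-05). Gsr, Prdx1 and Gclm were higher by smaller margins and nearer to the threshold: log2 0.55 ± 0.18 for Gsr (adjusted p = 0.0354), 0.42 ± 0.14 for Prdx1 (adjusted p = 0.0388) and 0.36 ± 0.12 for Gclm (adjusted p = 0.0306). All 3 of these calls were lost without replicate 1 or 3 of the untreated cells at 3 h or replicate 1 or 4 of S14 at 3 h, which left 5 of the 10. Replicate 2 of untreated cells and replicate 3 of S14 also ended the Gclm call, replicate 3 of S14 the Gsr call, and replicates 2 and 4 of untreated cells and replicate 2 of S14 the Prdx1 call. Without these libraries the adjusted p lay between 0.0529 and 0.147 for Gclm, 0.0511 and 0.126 for Gsr, and 0.0663 and 0.118 for Prdx1. The log2 fold changes in the same fits moved little, lying between 0.29 and 0.36 for Gclm, 0.47 and 0.58 for Gsr, and 0.37 and 0.43 for Prdx1. The Prdx1 call also ended without the filter on low counts (adjusted p = 0.124) and with the replicate block (adjusted p = 0.077). With spike-in scaling, under which 3.19% of all genes were called, the Slc7a11 call alone was left, and with that scaling and replicate 4 of untreated cells at 18 h left out Slc7a11, Txnrd1 and Hmox1 passed. In the latter fit 6.7% of all genes were called.

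At 18 h 8 of the 10 genes were again higher with S14 than in untreated cells, and Nfe2l2 was lower, against 24.3% of all genes, 12.6% as higher and 11.6% as lower. Nqo1 was 4.16-fold higher (log2 2.06 ± 0.30, adjusted p = 1.1e-06), Slc7a11 3.37-fold (adjusted p = 0.000427), Prdx1 2.58-fold (adjusted p = 8.18e-08) and Gclm 2.22-fold (adjusted p = 3.25e-09). Gsr, Gclc, Srxn1 and Txnrd1 were higher by log2 0.87 ± 0.20, 0.67 ± 0.18, 0.66 ± 0.10 and 0.36 ± 0.12. Hmox1 stood at 237 ± 14.7 CPM with S14 and 233 ± 62.7 CPM in untreated cells (SD, n = 4 each; log2 0.03 ± 0.14, adjusted p = 0.91 in edgeR's test). Nfe2l2 was lower (log2 -0.25 ± 0.08, adjusted p = 0.0212), a call that did not hold without replicate 1 (adjusted p = 0.0689) or replicate 3 of S14 (adjusted p = 0.0744). The Txnrd1 call (adjusted p = 0.0197) did not hold without replicate 1, 2 or 3 of untreated cells or replicate 3 or 4 of S14, with adjusted p from 0.0502 to 0.0935, nor in the fit of only the groups compared (adjusted p = 0.0725). With spike-in scaling, which moved the median of all genes to -0.98, 3 genes passed: Nqo1 as higher, and Nfe2l2 and Hmox1 as lower, Hmox1 at -1.14 (adjusted p = 0.00734). With replicate 4 of untreated cells also left out, Slc7a11, Gclm, Prdx1 and Nqo1 passed as higher and Nfe2l2 as lower. Of all genes, 65.2% were called with spike-in scaling and 19.2% with that library left out as well.

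With LPS, more of the genes were lower than higher at 3 h, and nearly all were higher at 18 h. At 3 h 6 of the 10 genes were lower with LPS than in untreated cells (Nfe2l2, Gclc, Gclm, Srxn1, Nqo1 and Hmox1) and 3 were higher (Slc7a11, Gsr and Txnrd1), against 55.5% of all genes, 25.3% as higher and 30.2% as lower. The steepest decrease was that of Gclc, which fell to 11.9 ± 3.84 CPM with LPS, against 36.7 ± 4.69 CPM in untreated cells (SD, n = 4 each; log2 -1.63 ± 0.19, adjusted p = 1.04e-09 in edgeR's test). On the log2 scale Srxn1 stood at -0.83 ± 0.10 (adjusted p = 6.94e-10) and Slc7a11 at 2.52 ± 0.30 (adjusted p = 1.77e-08). Gclm, Nqo1 and Hmox1 were near the threshold (adjusted p = 0.024, adjusted p = 0.0259 and adjusted p = 0.0212). Gclm did not pass in DESeq2 (adjusted p = 0.0693), with RLE size factors (adjusted p = 0.0583), or without replicate 4 of untreated cells (adjusted p = 0.124) or of LPS (adjusted p = 0.0904). Nor did Nqo1 without replicate 4 of untreated cells (adjusted p = 0.0565) or replicate 2 or 4 of LPS (adjusted p = 0.0835 and 0.126), and Hmox1 without replicate 3 or 4 of LPS (adjusted p = 0.0563 and 0.0727). Prdx1, at 0.27 ± 0.14, did not pass (adjusted p = 0.0911), and passed as higher in DESeq2 (adjusted p = 0.0215), with RLE size factors (adjusted p = 0.0425), in the fit of only the groups compared (adjusted p = 3.94e-05) and without replicate 4 of the untreated cells at 18 h (adjusted p = 0.00795). Spike-in scaling left the calls of Slc7a11, Gsr and Gclc, and with replicate 4 of untreated cells at 18 h also left out Txnrd1 and Prdx1 passed as higher too. The called share of all genes was 28.1% in the former fit and 39.6% in the latter.

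At 18 h 8 genes were higher with LPS than in untreated cells and Nfe2l2 was lower, against 55.6% of all genes, 27.3% as higher and 28.3% as lower. Hmox1 was at 2999 ± 266 CPM with LPS and 233 ± 62.7 CPM in untreated cells (SD, n = 4 each), a difference of 12.9-fold (log2 3.69 ± 0.15, adjusted p = 6.02e-17 in edgeR's test). Slc7a11 was 9.48-fold higher (adjusted p = 6.03e-10), Prdx1 6.58-fold (adjusted p = 7.84e-14) and Gsr 6.38-fold (adjusted p = 1.47e-15). Gclm, Srxn1, Txnrd1 and Gclc were higher by log2 1.93 ± 0.12, 1.91 ± 0.10, 1.08 ± 0.12 and 0.51 ± 0.18. The Gclc call (adjusted p = 0.0167) did not hold without replicate 3 of untreated cells at 18 h (adjusted p = 0.0551). Nqo1 was at 4.06 ± 0.266 CPM with LPS and 4.23 ± 1.79 CPM in untreated cells (SD, n = 4 each), with no call (adjusted p = 0.883, edgeR). Spike-in scaling ended the calls of Gclc and Txnrd1, and the median of all genes moved to -0.68, with 44.6% of all genes called. S14 and LPS are set against the same untreated libraries, so their values against untreated cells are not independent of each other.

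**Figure D3:**
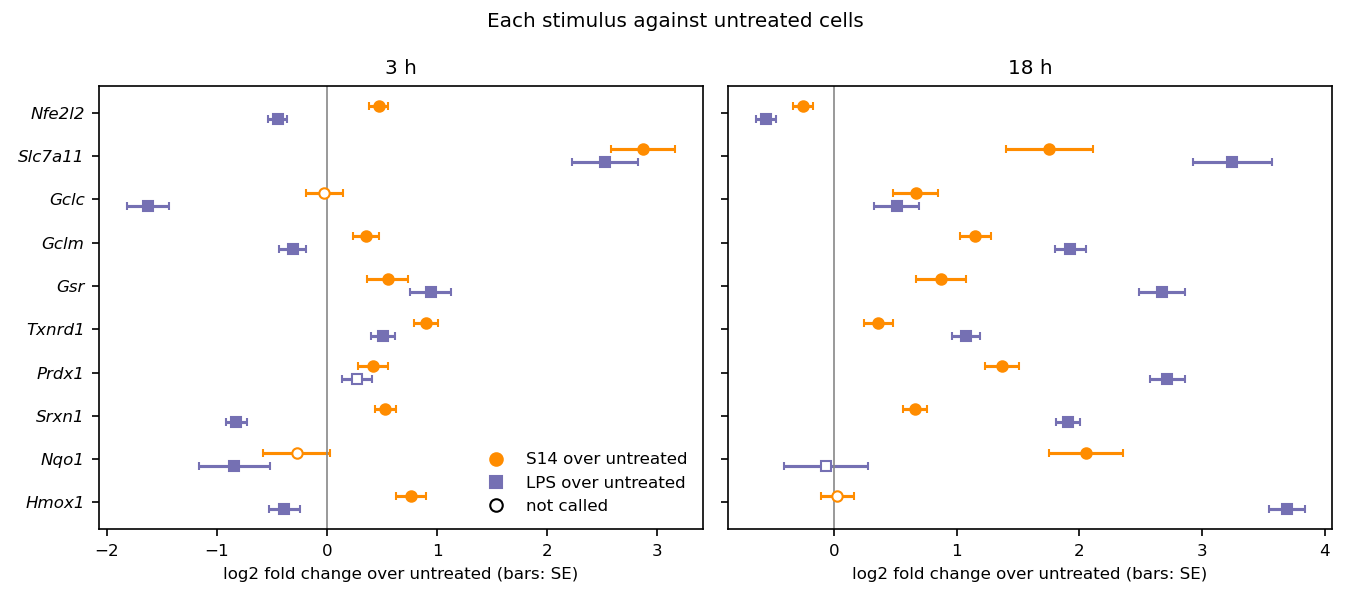
Log2 fold change of each stimulus over untreated cells of the same time for the 10 genes, with standard errors as bars; circles are S14, squares are LPS, and open symbols did not pass the test. At 3 h Nfe2l2, Gclm, Srxn1 and Hmox1 lie right of zero with S14 and left of it with LPS; at 18 h Hmox1 lies at 0.03 with S14 and 3.69 with LPS, and Nqo1 at 2.06 with S14 and -0.07 with LPS.

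The change of the LPS effect between the times was called for 7 of the 10 genes, all as higher at 18 h, against 51.2% of all genes and 25.1% as higher. It was largest for Hmox1 (4.08 ± 0.20, adjusted p = 6.56e-15) and Srxn1 (2.74 ± 0.14, adjusted p = 1.17e-20), followed by Prdx1, Gclm, Gclc and Gsr at 1.73 to 2.44 and Txnrd1 at 0.57 ± 0.16. The change of the S14 effect was called for 7 genes in both directions, against 16.6% of all genes, 7.61% as higher and 8.98% as lower. Nqo1 (2.33 ± 0.43, adjusted p = 8.8e-05), Prdx1, Gclm and Gclc were higher at 18 h, while Hmox1 (-0.73 ± 0.19, adjusted p = 0.00899), Nfe2l2 and Txnrd1 were lower. The Gclc call of the S14 effect (adjusted p = 0.0493) did not hold in 13 of the 24 fits that left out 1 library, with adjusted p up to 0.124, nor in DESeq2 (adjusted p = 0.056) or with RLE size factors (adjusted p = 0.0627). The Txnrd1 call did not hold without replicate 4 of S14 at 3 h (adjusted p = 0.0621). Slc7a11 passed as lower without replicate 2 of S14 at 3 h (adjusted p = 0.0445), without the filter on low counts (adjusted p = 0.0203) and with the replicate block (adjusted p = 0.0125), and the change of the LPS effect on Nqo1 passed without replicate 3 of LPS at 3 h (adjusted p = 0.0476). With spike-in scaling Nqo1, Hmox1, Nfe2l2 and Txnrd1 passed in the same direction for S14, and Gclm, Prdx1, Srxn1 and Hmox1 for LPS. That scaling also gave Slc7a11 as lower at 18 h for S14 (-2.21, adjusted p = 0.0102) and Nfe2l2 as lower for LPS (-1.12, adjusted p = 0.0466). Under that scaling the median of all genes was -1.08 for the S14 change and -0.97 for the LPS change. Of all genes, 35.1% and 41.5% were called. The value of Nfe2l2 for LPS was thus near the median of all genes. The 13 fits that ended the Gclc call left out replicate 1, 3 or 4 of untreated cells, replicate 2 or 4 of S14 or replicate 4 of LPS at 3 h, or replicate 1 or 3 of untreated cells, replicate 2, 3 or 4 of S14 or replicate 1 or 3 of LPS at 18 h.

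In untreated cells most of the 10 genes were lower at 18 h than at 3 h. Of the 10 genes 8 were lower at the later time and none was higher, against 38.8% of all genes, 19.6% as lower. Gclm was at 37.2 ± 6.52 CPM at 18 h and 127 ± 16.5 CPM at 3 h (SD, n = 4 each; log2 -1.76 ± 0.12, adjusted p = 1.01e-14 in edgeR's test). Txnrd1 (-1.42 ± 0.11), Srxn1 (-1.40 ± 0.10), Gclc (-1.28 ± 0.18), Slc7a11 (-1.17 ± 0.38), Nqo1 (-1.12 ± 0.31), Gsr (-1.09 ± 0.20) and Prdx1 (-0.50 ± 0.14) were also lower on the log2 scale. Nfe2l2 (-0.03 ± 0.08, adjusted p = 0.825) and Hmox1 (0.08 ± 0.14, adjusted p = 0.683) did not pass. The Slc7a11 call (adjusted p = 0.0156) did not hold without replicate 4 of the 3 h group (adjusted p = 0.0544) or replicate 2 of the 18 h group (adjusted p = 0.0581). With spike-in scaling the median of all genes moved to 0.82, the Gclm call alone of the 8 was left, and Nfe2l2 (0.86, adjusted p = 0.0286) and Hmox1 (1.10, adjusted p = 0.0116) passed as higher at 18 h. With replicate 4 of the 18 h group also left out, 6 of the 8 calls were left. Of all genes, 48.1% were called with spike-in scaling and 20.3% with that library left out as well. Markers moved over the same interval: in untreated cells the 7 macrophage markers summed to 30960 to 44752 CPM at 18 h and 18587 to 19996 CPM at 3 h, and the 4 T cell markers to 9.10 to 17.3 CPM at 18 h and 4.00 to 5.28 CPM at 3 h. The macrophage sums depend strongly on Lyz2, and the part of these markers in the change over time was not tested. A level with S14 at 18 h can therefore be above its untreated control and yet below untreated cells at 3 h. It was so for Gclm, Srxn1, Txnrd1 and Gclc, and in its mean for Gsr, whose libraries overlapped with those of untreated cells at 3 h. The same held with LPS at 18 h for Txnrd1 and Gclc.

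Read by overlap alone, the 4 S14 libraries lay above all 4 LPS libraries for 6 genes at 3 h and below them for none, where 42.9% of all tested genes had no overlap in either direction. At 18 h they lay above for 2 genes and below for 7, against 41.1% of all genes. Against untreated cells the S14 libraries were apart for 7 genes at 3 h, all above, where 20.8% of all genes were apart. At 18 h they were above for 5 genes and below for 1, against 23% of all genes. The LPS libraries were above untreated cells for 4 genes and below for 4 at 3 h (51.5% of all genes apart), and above for 8 and below for 1 at 18 h (44.1%). Untreated cells at 18 h were below those at 3 h for 8 genes and above for none (32.8%).

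Setting the 6 groups of each gene in order of their means showed which neighbouring groups overlapped in their libraries. Groups that overlapped could still pass the test, as Hmox1 did with LPS against untreated cells at 3 h (adjusted p = 0.0212 in edgeR's test). Nqo1 had 1 group apart, S14 at 18 h, while the other 5 groups each overlapped with their neighbour. Hmox1 had LPS at 18 h and then S14 at 3 h apart, and the remaining 4 groups, from 237 to 168 CPM, each overlapped with the next. In Gclc only the step between LPS at 18 h and untreated cells at 18 h was free of overlap. In Prdx1 only S14 and LPS at 3 h overlapped. The ratio of highest to lowest group mean was 17.8 for Hmox1, 16.5 for Slc7a11 and 6.58 for Prdx1, and between 2.07 and 6.35 for the other 7 genes.

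The rest of the pathway was read from a list of 57 genes, 54 of which passed the filter on low counts. Some had few reads, with group means of 1.54 to 2.95 CPM for Ftl1, 2.35 to 3.66 for Gpx4 and 1.67 to 3.24 for Chac2. In the comparison of S14 with LPS at 3 h, 18 of the 54 were higher and 11 lower with S14, with a median of 0.04. At 18 h 10 were higher and 27 lower, with a median of -0.30. Over all tested genes the called share was 46.1% at 3 h and 42.6% at 18 h, and the medians were 0.07 and 0.02. At 3 h the calls by class were 4 higher and 4 lower of 11 regulators, 1 higher of 9 glutathione genes, 2 higher and 4 lower of 10 thioredoxin genes, 3 higher and 1 lower of 6 NADPH genes, 5 higher of 7 haem and iron genes, and 3 higher and 2 lower of 11 detoxification genes. At 18 h they were 1 higher and 5 lower for regulators, 1 and 4 for glutathione, 3 and 5 for thioredoxin, 2 and 2 for NADPH, 1 and 5 for haem and iron, and 2 and 6 for detoxification. Against untreated cells, S14 had 9 higher and 4 lower list genes at 3 h and 27 higher and 5 lower at 18 h. The background for S14 against untreated cells was 15.2% at 3 h and 24.3% at 18 h. LPS had 16 higher and 14 lower at 3 h, which are 30 of 54 genes, a share close to the background of 55.5%, and 33 higher and 9 lower at 18 h, against 55.6%. In untreated cells 6 were higher and 20 lower at 18 h than at 3 h, against 38.8%. Spike-in scaling gave 9 calls in S14 against LPS at 3 h and 21 at 18 h, where 19.0% and 16.3% of all genes were called.

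Among list genes of at least 10 CPM, regulators of NRF2 had the widest differences at 3 h. Bach1, which encodes the repressor that competes with NRF2 for its sites, was at 40.1 ± 4.99 CPM with S14 and 201 ± 28.3 CPM with LPS at 3 h (SD, n = 4 each; log2 -2.33 ± 0.11, adjusted p = 2.32e-21 in edgeR's test). Untreated cells at that time had 57.5 ± 1.70 CPM. At 18 h Bach1 was at 78.4 ± 11.5 CPM with S14, 60.8 ± 2.01 CPM with LPS and 104 ± 11.2 CPM in untreated cells, and S14 was above LPS by 0.37 ± 0.11 (adjusted p = 0.00622). The small MAF genes encode the partners of both NRF2 and BACH1, and 2 of them moved apart at 3 h. Mafk was at 34.1 ± 5.47 CPM with S14 and 128 ± 17.0 CPM with LPS (log2 -1.92 ± 0.13, adjusted p = 6.21e-17), and Mafg at 135 ± 22.2 CPM with S14 and 36.8 ± 6.40 CPM with LPS (log2 1.87 ± 0.13, adjusted p = 5.92e-15). Untreated cells at 3 h had 29.5 ± 1.34 CPM of Mafk and 115 ± 11.6 CPM of Mafg, and S14 against untreated cells did not pass for either gene (Mafk 0.20 ± 0.13, adjusted p = 0.381; Mafg 0.23 ± 0.12, adjusted p = 0.23). By 18 h Mafg was lower with S14 (-0.76 ± 0.12, adjusted p = 2.03e-06), and Mafk did not pass (-0.21 ± 0.14, adjusted p = 0.232). Maff, the third small MAF gene, was lower with S14 at 18 h (-1.80 ± 0.36, adjusted p = 7.79e-05) at 1.83 ± 0.713 CPM, against 6.52 ± 1.67 CPM with LPS, and did not pass at 3 h (adjusted p = 0.29).

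Keap1 was at 158 ± 17.6 CPM with S14 and 247 ± 25.3 CPM with LPS at 3 h, and passed as lower with S14 (log2 -0.65 ± 0.12, adjusted p = 4.15e-05 in edgeR's test; SD, n = 4 each). Untreated cells at 3 h had 127 ± 8.05 CPM of Keap1. LPS over untreated cells was 0.96 ± 0.12 (adjusted p = 4.88e-08), while S14 over untreated cells did not pass (0.31 ± 0.12, adjusted p = 0.0977). At 18 h S14 against LPS did not pass for Keap1 (-0.08 ± 0.12, adjusted p = 0.656). Sqstm1 encodes p62, an autophagy receptor that binds KEAP1. Against LPS it was higher with S14 at 3 h (0.54 ± 0.08, adjusted p = 7.1e-07) and lower at 18 h (-0.92 ± 0.09, adjusted p = 4.27e-12), calls in both directions like those of Gclm, Txnrd1, Srxn1 and Hmox1. Against untreated cells Sqstm1 was higher with S14 at both times (1.00 ± 0.09 and 0.31 ± 0.09, adjusted p = 1.46e-12 and adjusted p = 0.005). With LPS it was also higher at both times (0.45 ± 0.08 and 1.23 ± 0.09, adjusted p = 1.51e-05 and adjusted p = 3.34e-16).

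Among the other enzymes and transporters, several genes of haem and iron had calls in the same directions as Hmox1. Slc48a1, a haem transporter, and Slc40a1, the iron exporter ferroportin, were higher with S14 at 3 h (1.07 ± 0.09 and 1.25 ± 0.23; adjusted p = 1.32e-13 and adjusted p = 1.51e-05). Both were lower at 18 h (-1.36 ± 0.09 and -1.33 ± 0.18; adjusted p = 6.46e-17 and adjusted p = 7.16e-08). Idh1, an NADPH-making isocitrate dehydrogenase, was higher with S14 at both times (0.98 ± 0.11 at 3 h and 1.38 ± 0.10 at 18 h; adjusted p = 2.45e-10 and adjusted p = 1.47e-14). The carbonyl reductase Cbr3 was higher at 3 h (0.98 ± 0.22, adjusted p = 0.000291), while thioredoxin itself, Txn1, a gene with processed copies in the genome (-0.88 ± 0.09, adjusted p = 8.89e-12), and the quinone reductase relative Nqo2 (-0.80 ± 0.13, adjusted p = 2.15e-06) were lower. Mean CPM at 3 h with S14, with LPS and in untreated cells was 288, 137 and 278 for Slc48a1. In the same order it was 18.0, 7.52 and 21.3 for Slc40a1 and 178, 90.2 and 236 for Idh1. It was 16.0, 8.12 and 17.2 for Cbr3, 905, 1661 and 786 for Txn1, and 48.4, 84.2 and 61.3 for Nqo2. At 18 h it was 303, 778 and 162 for Slc48a1, 24.5, 61.7 and 35.5 for Slc40a1, and 305, 117 and 253 for Idh1.

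At 18 h the glutaredoxin gene Glrx was at 149 ± 22.4 CPM with S14 and 901 ± 107 CPM with LPS (SD, n = 4 each; log2 -2.60 ± 0.10, adjusted p = 1.16e-24 in edgeR's test). The peroxiredoxin Prdx5 (-1.50 ± 0.10, adjusted p = 3.89e-16) and the esterase Esd (-1.50 ± 0.08, adjusted p = 4.26e-19) were also lower with S14. The epoxide hydrolase Ephx1 stood out on the other side, with 12.6 ± 3.73 CPM with S14 and 3.37 ± 0.754 CPM with LPS (log2 1.89 ± 0.26, adjusted p = 5.56e-08). Tkt of the pentose phosphate pathway (0.96 ± 0.10, adjusted p = 3.01e-11), the glutathione transferase Gsto1 (0.95 ± 0.11, adjusted p = 1e-09) and the thioredoxin inhibitor Txnip (0.88 ± 0.11, adjusted p = 4.08e-09) were higher as well. Untreated cells at 18 h averaged 76.1 CPM for Glrx, 206 for Prdx5 and 276 for Esd, below the S14 mean in each case. Ephx1 averaged 23.8 CPM in untreated cells, above both stimuli. In the order S14, LPS and untreated, Tkt averaged 435, 224 and 479 CPM, Gsto1 84.2, 43.5 and 72.0, and Txnip 226, 123 and 235. These genes were taken as the 5 highest and 5 lowest called members of the list at each time, among those whose higher group averaged 10 CPM or more. Osgin1 fell below that level at 3 h and was named after its values were seen: it had 8.21 ± 1.32 CPM with S14, 0.308 ± 0.459 CPM with LPS and 6.82 ± 1.14 CPM in untreated cells.

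**Figure D4:**
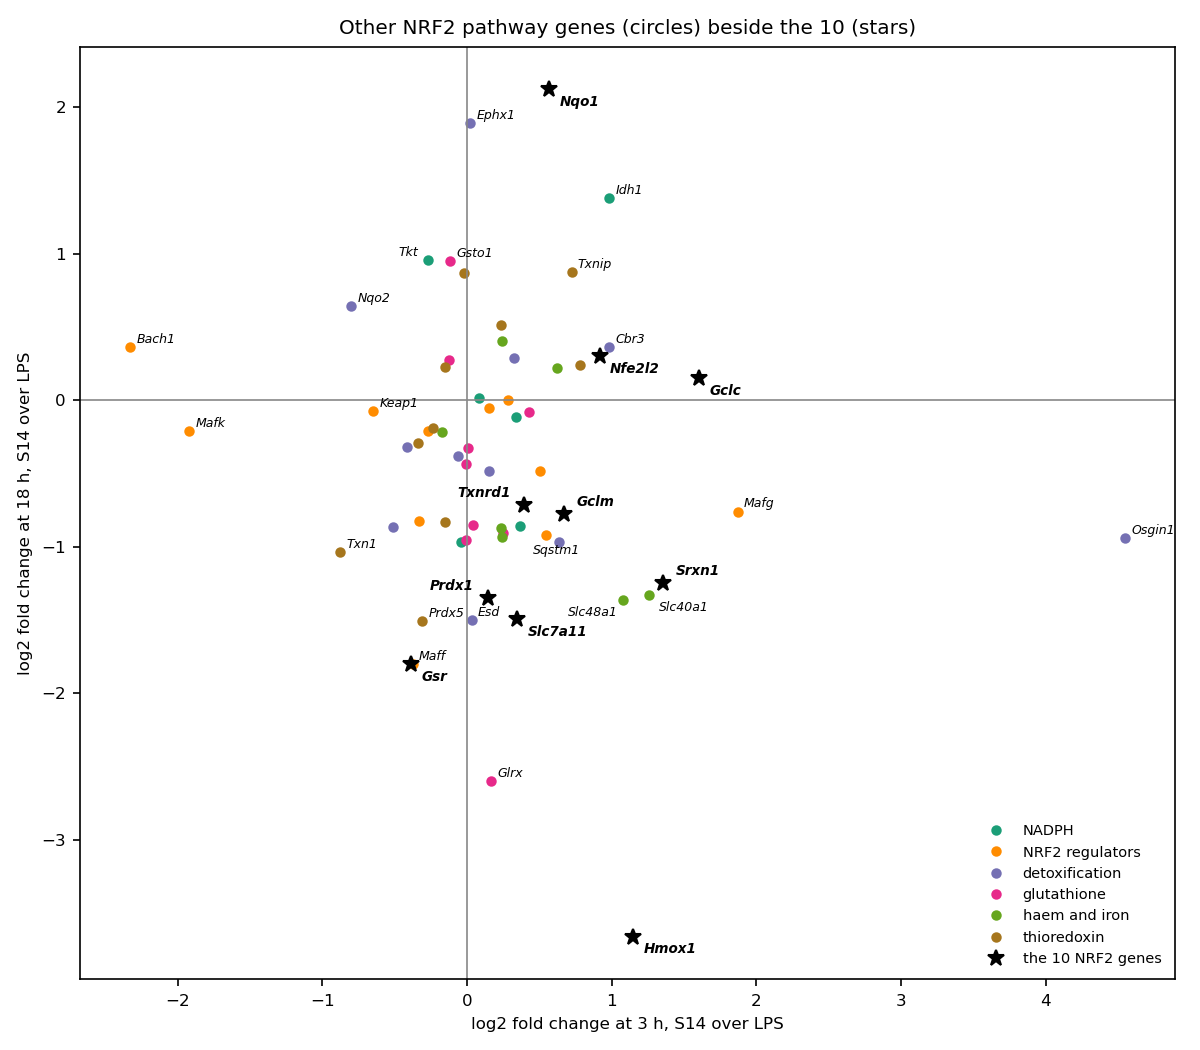
Log2 fold change of S14 over LPS at 3 h (horizontal) and at 18 h (vertical) for the 54 tested genes of the pathway list (circles, coloured by class) and the 10 genes of the programme (stars). Of the stars, 6 lie right of zero at 3 h and below zero at 18 h, whether called or not; Bach1 and Mafk lie far left, at -2.33 and -1.92 at 3 h.

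The patterns of the 10 genes over the 24 libraries were compared as a description, by the Pearson correlation of log2 CPM. Libraries of a group share their treatment and time, so these values mostly reflect the 6 group means and carry no p. The closest pair was Gclm and Srxn1 (r = 0.89), then Prdx1 and Hmox1 (r = 0.83), Slc7a11 and Gsr (r = 0.82) and Slc7a11 and Txnrd1 (r = 0.82). Nfe2l2 was opposed to Prdx1 (r = -0.55), and Nqo1 had no correlation above 0.45 with another of the 10. Of all other tested genes with a mean of at least 10 CPM, those nearest to Prdx1 were the ferritin gene Fth1, Arhgdib and the biliverdin reductase gene Blvrb (r = 0.97, 0.97 and 0.96). Nearest to Txnrd1 were Zfp263, the cytokine gene Tnf and the efflux pump gene Abcc1 (r = 0.96 each). Gclm was nearest to Pgd, an NADPH-making enzyme of the pentose phosphate pathway, Lmo4 and Orai2 (r = 0.92, 0.91 and 0.90), and Srxn1 to Lmo4, Dynll1 and the glycolytic gene Eno1 (r = 0.93 each). Gsr was nearest to Msr1, Mefv and Pdpn (r = 0.94 each), and Slc7a11 to Clec4e, Cpd and Itgal (r = 0.94, 0.93 and 0.92). Hmox1 was nearest to Zdhhc12, Ubap1 and Kdm7a (r = 0.95, 0.94 and 0.93), Nfe2l2 to Hook3, Limd1 and Herpud1 (r = 0.90, 0.88 and 0.86) and Gclc to Mrpl51, 2510009E07Rik and Ctnnbip1 (r = 0.89, 0.88 and 0.85). Nqo1 had the weakest neighbours, Farsb, Nars and Txn2 (r = 0.85, 0.82 and 0.81).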

How the data were processed

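RNA of 24 libraries, 4 in each of 6 groups, was sequenced from the 3′ ends of transcripts. The authors deposited a table of read counts per gene, and a second table of gene counts divided by a size factor per library, here called signal. Per the submitters' processing notes, the tools were cutadapt 1.18, STAR 2.6.1a, featureCounts 1.6.4 and DESeq2, with GRCm38; the sources used here do not give the annotation release, the strand setting or the treatment of multi-mapping reads. Whole reads recovered from the signal (100% of values whole within 8.6e-10) differed from the counts for 7689 genes and served as an alternative.

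Ribosomal RNA rows (0.132% to 0.469% of reads) and 114 spike-in rows were left out of library sizes. Counts were filtered with edgeR's filterByExpr (minimum count 10, minimum total 15), scaled by TMM and fitted in edgeR 4.0.16 (R 4.3.3) with 1 mean per group over all 24 libraries, 18 residual degrees of freedom and a robust quasi-likelihood F test, with Benjamini-Hochberg adjustment over 11717 genes. Standard errors are the absolute log2 fold change over the square root of F. CPM are per 1000000 reads of the TMM-scaled library, given as mean ± SD over 4 libraries; levels are not compared between genes. Members and lists were chosen with earlier results of these data known. Of the pathway list, the text names the 5 highest and 5 lowest called genes of S14 against LPS at each time whose higher group averaged 10 CPM or more, and 6 regulators; for likeness, the 3 genes of highest correlation with each member. DESeq2 1.42.0, RLE size factors, no filter, fits of the groups compared only, a replicate block, spike-in scaling and leaving out each library were the alternatives. No libraries were found to be duplicates. The fit was tested on simulated data.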

Additional observations from a re-analysis of the deposited data

Results flagged for a closer look

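In 3 of the 60 groups of 4 libraries, 1 library lay far from the other 3 by Dixon's test, where chance gives about 1 in 20. Slc7a11 was at 46.2 CPM in replicate 4 of LPS-treated cells at 3 h. Replicate 4 of untreated cells at 18 h, the library that stood apart, had 67.4 CPM of Txnrd1, above its group, and 633 CPM of Prdx1, below it.

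The effect of S14 against LPS differed between the times for all 10 genes in edgeR's interaction test. As the log2 difference at 18 h minus that at 3 h, the values were -4.81 for Hmox1, -2.60 for Srxn1, -1.84 for Slc7a11, -1.49 for Prdx1, -1.45 for Gclc, -1.44 for Gclm, -1.41 for Gsr, -1.11 for Txnrd1, -0.62 for Nfe2l2 and 1.56 for Nqo1. The effect of S14 against untreated cells differed between the times by 2.33 for Nqo1, 0.95 for Prdx1, 0.80 for Gclm, 0.69 for Gclc, -0.54 for Txnrd1, -0.72 for Nfe2l2 and -0.73 for Hmox1. That of LPS against untreated cells differed by 4.08 for Hmox1, 2.74 for Srxn1, 2.44 for Prdx1, 2.24 for Gclm, 2.14 for Gclc, 1.73 for Gsr and 0.57 for Txnrd1. These tests share their untreated, S14 or LPS libraries with each other.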

How the results depend on the processing

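Of 100 log2 fold changes (10 genes in 10 comparisons), direction and call held for 96 in DESeq2, 96 with RLE size factors, 98 without a filter, 97 with only the groups compared, 100 with the second table, 43 with spike-in scaling and 64 with spike-in scaling and replicate 4 of untreated cells at 18 h left out. Libraries of the same replicate number correlated by -0.0255 to 0.143 in their deviations from group means. The closest library of the other group had the same number in most cases, although these correlations were small, and another number in the rest. The main fit does not use the replicate number. Whether a shared number means a shared preparation is not given by the labels and was not tested. The replicate block kept 96. Prdx1 in S14 against untreated cells at 3 h was lost (adjusted p = 0.077). Gsr in S14 against LPS at 3 h (0.0453) and Slc7a11 in the change over time of S14 (0.0125) and LPS (0.0465) against untreated cells were gained. The block's called members were within 1.5 times of the other fit in every comparison. Spike-in reads numbered only 705 to 2588 per library, their added amount is not given, and counts of Nqo1 and Slc7a11 were low, which limits precision.

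With spike-in scaling the called members were 2 (main value 6) for S14 against LPS at 3 h, 1 (8) for S14 against untreated at 3 h, 3 (9) at 18 h, 3 (9) for LPS against untreated at 3 h, 3 (8) for untreated 18 h against 3 h and 5 (10) for the change of S14 against LPS over time. The share of all genes called under that scaling was 19.0%, 3.19%, 65.2%, 28.1%, 48.1% and 9.97% in these 6 comparisons. Called genes of the pathway list were 9 (29) and 21 (37) for S14 against LPS at 3 h and 18 h, 3 (13) for S14 against untreated at 3 h, and 12 (30) and 25 (42) for LPS against untreated at 3 h and 18 h. Of all genes, 16.3% were called for S14 against LPS at 18 h and 44.6% for LPS against untreated at 18 h. With replicate 4 of untreated cells at 18 h also left out, members numbered 3 for S14 against untreated at 3 h, 5 at 18 h and 5 for LPS against untreated at 3 h. List genes numbered 13 for S14 against LPS at 3 h and 4 and 10 for S14 against untreated at 3 h and 18 h, of 54 tested. The share of all genes called in that setting was 29.4% for S14 against LPS at 3 h. It was 6.7% and 19.2% for S14 against untreated at 3 h and 18 h, and 39.6% for LPS against untreated at 3 h. The cause of these changes was not tested.

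Spike-in scaling turned these log2 fold changes (with the library also left out in brackets). S14 against LPS gave -0.0663 (-0.0662) for Prdx1 at 3 h, and -0.0701 (-0.0689) for Nfe2l2 and -0.18 (-0.17) for Gclc at 18 h. S14 against untreated gave 0.0733 (0.0754) for Gclc at 3 h, and at 18 h -0.30 for Gclc, -0.26 for Gsr, -0.75 for Txnrd1, -0.32 for Srxn1 and -1.14 (-0.25) for Hmox1. LPS against untreated gave 0.0312 (0.0294) for Gclm and 0.000962 for Hmox1 at 3 h, and -0.12 for Gclc at 18 h. Untreated 18 h against 3 h gave 0.86 (0.27) for Nfe2l2 (0.0037 in DESeq2 and with RLE) and 0.20 for Prdx1. The change of S14 against untreated over time gave -0.37 for Gclc, -0.38 for Gclm, -0.93 (-0.0229) for Gsr, -0.0046 for Prdx1 and -0.96 (-0.47) for Srxn1, and that of LPS -0.15 for Slc7a11, -0.54 for Txnrd1 and -0.0100 (-0.0206) for Nqo1. That scaling moved the median of all genes by more than 0.1, to -0.16 and -0.30 for S14 against LPS, 0.09 and -0.98 for S14 against untreated and 0.23 and -0.68 for LPS against untreated at 3 h and 18 h. It also moved the median to 0.82 for untreated 18 h against 3 h. For the changes over time of S14 and LPS against untreated the medians were -1.08 and -0.97.

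Leaving out each library gave 6 to 7 and 9 to 9 called members for S14 against LPS at 3 h and 18 h, 5 to 8 and 7 to 9 for S14 against untreated, 6 to 10 and 8 to 9 for LPS against untreated, 7 to 8 for untreated cells over time, and 10 to 10, 5 to 7 and 7 to 8 for the changes over time of S14 against LPS, S14 and LPS against untreated. List calls were 27 to 30 and 33 to 37, 10 to 16 and 29 to 33, and 29 to 32 and 38 to 42. Directions that turned were all uncalled: Gclc for S14 against untreated at 3 h (-0.11 to 0.11), Hmox1 for the same at 18 h (-0.0687 to 0.23), Nqo1 for LPS against untreated at 18 h (-0.32 to 0.0924) and Hmox1 in untreated cells over time (-0.12 to 0.18).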
